A study of Oryza sativa Japonica Group with 12 samples.

Results

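Young and old leaves were compared in rice (Oryza sativa, Japonica group) that over-expresses the microRNA miR156 (OE). The comparison rests on 6 of the 12 arrays of the series, 3 from leaf 6 (L6) and 3 from leaf 3 (L3), and all of the array's non-control probe sets belong to it. Replicates 1, 2 and 3 were the transgenic lines Md15, Md43 and Mh9, and each line gave 1 array of L3 and 1 of L6. The other 6 arrays hold the same leaves of wild type in 3 biological repeats (WT1, WT2 and WT3). They serve here to show where the OE leaf difference departs from that of wild type. They also enter the filter on low signal, the choice of probe set per gene and the spread behind the OE tests. All plants were 45 days old and had been grown in hydroponic culture. Leaves were numbered on the main tiller in the order of their emergence, so that L3 was the older leaf and L6 the younger, and age and position cannot be told apart. The OE plants had been selected on hygromycin, and their miR156 level had been checked on small RNA blots, per the labels. Both leaves of an OE line carry the transgene, so the leaf contrast is not a test of over-expression. The labels do not state the promoter of the transgene, nor whether both leaves of a line came from the same plant.

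MiR156 is abundant in juvenile plants, where it keeps a family of transcription factors, the SPL proteins, low by cutting or blocking those of their transcripts that carry a complementary site, and its level falls as a shoot matures and forms later leaves. Plants with added miR156 keep juvenile features for longer. A grass leaf expands from its base, lays down xylem and lignified walls while it matures, and later exports its nitrogen, metals and sugars to younger organs as it ages.

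The array (Affymetrix rice) reports 1 linear signal per probe set, and differences are given as L6 minus L3 of log2(signal + 16), so that the folds of dim genes are understated. Median signals ran from 50.8 to 56.5 over the 12 arrays. Over probe sets (which are not replicates), OE arrays correlated at 0.931 to 0.989 within L3, at 0.975 to 0.988 within L6 and at 0.729 to 0.918 across leaves. Mean within-group variance was 0.117 in OE L3, 0.0487 in OE L6, 0.170 in WT L3 and 0.0428 in WT L6. The printed limma p-values use a spread estimated over all 4 groups, so that of WT L3 enters the OE tests. The L6 array of Md15 stood apart in its controls, where the 3′ probe set of the Dap control exceeded the 5′ one by 5.93 on the log2 scale against 3.70 to 4.19 on the other 11 arrays, and its 18S ribosomal RNA signal was 332 against 971 to 1966. Mesophyll markers bore out the leaf label, with a summed signal of 29435 to 34633 in OE L3 and 27498 to 34837 in OE L6 over 6 genes, of which RBCS1 was near background and did not pass the filter on low signal. Root markers summed to 301 to 331 and 311 to 364 over 5 genes (3 passed the filter), and markers of meristem and inflorescence to 117 to 140 and 106 to 128 over 4 genes (1 passed).

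A large part of the leaf transcriptome separated L6 from L3 in the over-expressors. Of 34316 probe sets tested, 14595 (42.5%) changed at an adjusted p under 0.05 in limma, 6523 (19%) higher and 8072 (23.5%) lower in L6, and 3868 (11.3%) changed by at least 2-fold, 1616 (4.71%) higher and 2252 (6.56%) lower. The arrays of the leaves did not overlap in 59.7% of all probe sets and in 98.7% of those called. With the brightest probe set for each of 15569 genes, 50.9% were called, 21.2% higher and 29.6% lower, and the median difference over these genes was -0.02. These shares are the background for every list of genes below. Leaves were sampled whole, so fewer cells of a type and less RNA per cell cannot be told apart.

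Among genes with a name, the 12 largest falls from L3 to L6 included chitinases, a lipoxygenase and carriers of sugar, ammonium and metals. Cht11, a chitinase, read 3683, 2602 and 3259 in L3 of Md15, Md43 and Mh9 and 47.8, 66.1 and 72.8 in their L6, a 40.9-fold fall (log2 -5.35, SE 0.48, limma adjusted p = 5.09e-05). Cht8, a second chitinase, read 3393, 2887 and 3751 against 45.6, 64.7 and 111 (log2 -5.28, adjusted p = 6.18e-05 in limma). In both genes the lowest L3 array stood more than an order of magnitude above the highest L6 array. BURP17, of the plant BURP-domain family, read 4186, 3771 and 4002 against 199, 35.7 and 163 (log2 -4.99, SE 0.43). The lipoxygenase CM-LOX1, of the enzymes that oxidise linolenic and linoleic acid, read 636, 1371 and 1380.2 against 15.7, 10.7 and 65.6 (log2 -4.72, SE 0.54). In BURP17 and CM-LOX1 the Md43 line had the lowest L6 signal, and all lines fell.

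The monosaccharide transporter MST3 fell in all lines by a similar amount, from 1638, 2334 and 2843 in L3 to 78.8, 82.7 and 92.2 in L6 (log2 -4.47, SE 0.18, limma adjusted p = 1.02e-06). The ammonium transporter AMT3-2 read 492, 998 and 1163 against 21.4, 28.8 and 18.6 (log2 -4.45, SE 0.27, adjusted p = 5.87e-06). LOGL9, of the LONELY GUY-like enzymes that release active cytokinin, read 658, 665 and 819.5 against 24.04, 29.03 and 28.5 (log2 -4.07, SE 0.19). L6 signals of AMT3-2 and LOGL9 lay below the array medians, so the size of the fall depends on the pseudocount, and for AMT3-2 it was -5.14 with a pseudocount of 1 and -3.37 with 64. YSL13, of the yellow stripe-like carriers of metal chelates, read 1229, 1511 and 1899 against 80.8, 43.2 and 127 (log2 -4.04), and NAS3, a nicotianamine synthase that makes such a chelator, read 990.0, 1114 and 1384 against 89.9, 17.4 and 123 (log2 -3.89, SE 0.60). The remaining members of the 12 strongest named falls were AT5, an acyltransferase of the BAHD family (log2 -4.12), AGO18, an Argonaute protein of grasses that binds small RNAs (log2 -4.02), and BC1L9, of the COBRA-like wall proteins (log2 -3.95). All 12 kept their call under every alternative tried, with a single array left out included. Their order of size is not separated by the standard errors of neighbouring genes.

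**Figure D1:**
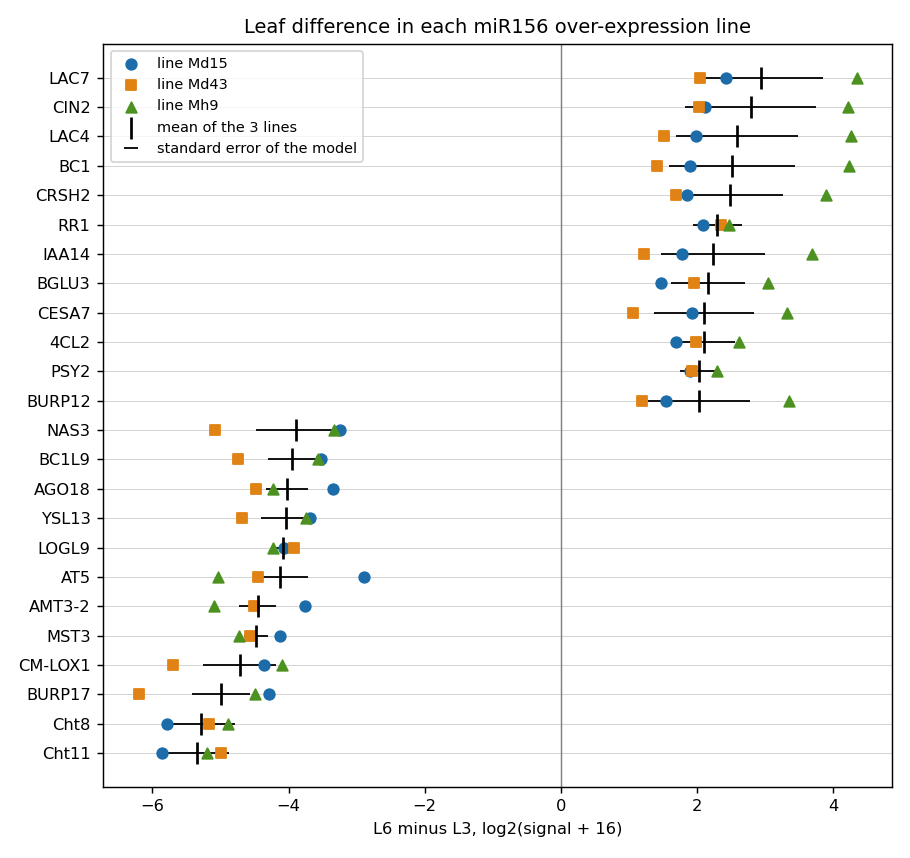
L6 minus L3 of log2(signal + 16) for the 12 named genes with the largest rises and the 12 with the largest falls; coloured points are the 3 lines, black ticks their means and horizontal bars the standard error of the model. The falls of MST3 and LOGL9 lie close together in all lines, whereas Mh9 (triangles) has the largest rise in each of the 12 genes that rose.

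Among genes with a name, the 12 largest rises included laccases, other wall genes and a cell-wall invertase, and the size of most rises differed between lines. LAC7, a laccase (enzymes that oxidise lignin precursors), read 271, 517 and 54.9 in L3 of Md15, Md43 and Mh9 and 1531, 2185 and 1425 in L6 (log2 2.94, SE 0.92, limma adjusted p = 0.0271). A second laccase, LAC4, read 135.9, 194 and 16.4 against 583, 587 and 607 (log2 2.59, SE 0.89, adjusted p = 0.0397). CIN2, a cell-wall invertase that splits sucrose outside the cell, read 110.4, 119 and 8.07 against 534, 535 and 432 (log2 2.79, SE 0.96, adjusted p = 0.0392). In LAC7, LAC4 and CIN2 alike, L3 of Mh9 was far below L3 of the other lines, while the L6 arrays lay close together. BC1, the COBRA-like protein of brittle culm 1, read 194, 221 and 23.8 against 764, 615 and 731 (log2 2.51, adjusted p = 0.0499 in limma). CESA7, a cellulose synthase subunit of secondary walls, read 328, 389 and 93.2 against 1293, 831 and 1081 (log2 2.11, adjusted p = 0.0412 in limma). CRSH2, a calcium-dependent enzyme that makes the plastid signal nucleotide ppGpp, read 488, 674 and 99.9 against 1809.5, 2209.5 and 1716 (log2 2.48, adjusted p = 0.0276 in limma). The same order of lines in L3 recurred in BC1, CESA7 and CRSH2, with Mh9 lowest and Md43 highest. IAA14, an Aux/IAA repressor of auxin responses, read 54.4, 73.95 and 2.64 against 227, 195 and 225 (log2 2.24, SE 0.77), and BGLU3, a beta-glucosidase, 128, 129 and 31.4 against 385, 546 and 376 (log2 2.16, SE 0.54). BURP12 rose with an adjusted p of 0.0494 in limma (log2 2.03, SE 0.74).

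The calls of LAC7, LAC4, CIN2, BC1, CESA7, CRSH2, IAA14 and BURP12 were lost without the L3 array of Mh9 (limma adjusted p from 0.101 for CRSH2 to 0.183 for BC1). They were also lost without any 1 of the OE L6 arrays (adjusted p from 0.0541 for LAC7 to 0.112 for BURP12), with LAC7 at 2.75 to 3.06. The calls of LAC4, CIN2, BC1, CESA7, IAA14 and BURP12 were lost without any 1 of the WT L6 arrays as well. Of these, all but CIN2 were lost without the L3 array of Md15, and all but CESA7 with a pseudocount of 1. Without the L3 array of Mh9 the differences were smaller but of the same sign, 2.12 for LAC7, 1.97 for CIN2 and 1.52 for CESA7. With the line as a replicate block, the adjusted p was 0.0514 for LAC4, 0.0553 for BC1, 0.0539 for CESA7, 0.0569 for IAA14 and 0.0568 for BURP12, and these 5 calls were lost. Among the 12 strongest rises, the leaf differences of the lines lay closest together in RR1, PSY2 and 4CL2. RR1, a response regulator of cytokinin signalling, read 98.03, 127 and 78.2 against 468, 712 and 506 (log2 2.3, SE 0.37, limma adjusted p = 0.00114). PSY2, a phytoene synthase that opens carotenoid synthesis, read 73.95, 114 and 53.6 against 319, 477 and 324 (log2 2.04, SE 0.28, adjusted p = 0.000552). 4CL2, which activates cinnamic acids for lignin and flavonoids, read 40.4, 69.2 and 16.3 against 166, 322 and 183 (log2 2.1, SE 0.46, adjusted p = 0.00572). RR1, PSY2 and 4CL2 kept their calls under every alternative tried.

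**Figure D2:**
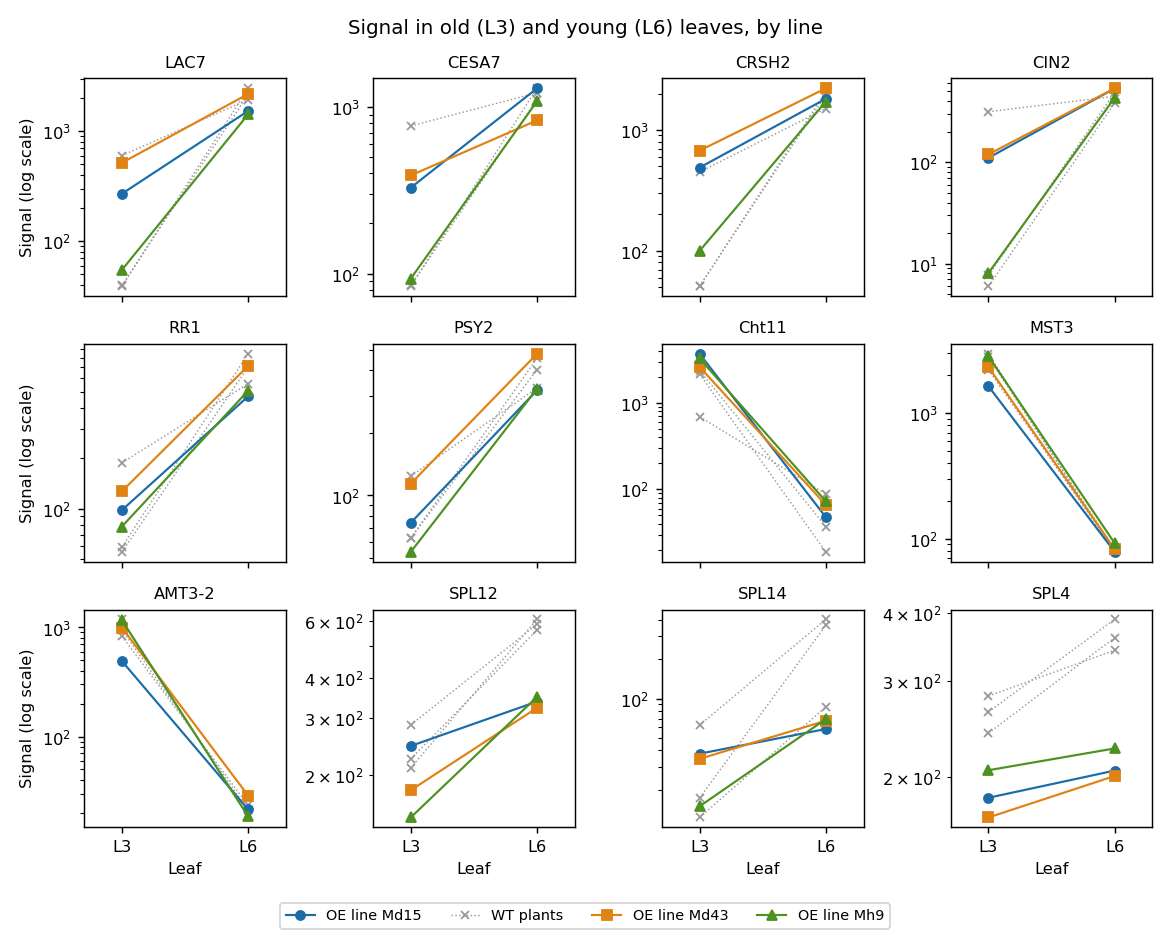
Signal of 12 genes in L3 and L6 on a log axis. Solid coloured lines join the leaves of an OE line. Dotted grey lines join wild-type leaves of the same replicate number, which are not shown to be paired. For LAC7, CESA7, CRSH2 and CIN2 the L3 points are spread and the L6 points close, for Cht11, MST3 and AMT3-2 all lines fall together, and the SPL14 and SPL4 L6 signals of OE lie below those of wild type.

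The pattern of the lines held across the probe sets called. Among the 1616 that rose by at least 2-fold, the median difference was 1.08 in Md15, 1.15 in Md43 and 1.89 in Mh9, and Mh9 had the largest rise in 89.9% and the lowest L3 signal in 96.7%. Among the 2252 that fell by at least 2-fold, the medians were -1.31 in Md15, -1.82 in Md43 and -1.58 in Mh9, and Md43 had the largest fall in 60.6%. These medians describe probe sets chosen by the same differences. Over all probe sets tested, the SD of the leaf differences was 0.652 in Md15, 0.790 in Md43 and 1.01 in Mh9, and the differences of the lines correlated at 0.814 to 0.873. The differences of Mh9 correlated more highly with those of WT2 (0.954) and WT3 (0.941), and less with those of WT1 (0.697). Each line is 1 pair of leaves, so a difference between lines cannot be told apart from one between leaves of different stage. Wild-type leaves taken by replicate number had a like spread, with an SD of 0.523 in WT1, 1.13 in WT2 and 1.09 in WT3. Those numbers are not shown to pair the wild-type leaves. Without the L3 array of Mh9, 9027 probe sets were called in OE, 2961 higher and 6066 lower.

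Genes of walls and of the cell cycle rose more often than they fell. Of 52 tested genes of primary walls (of 65 on the array, with cellulose synthases, cellulose synthase-like genes, expansins and related genes), 20 rose and 5 fell, and the median difference was 0.90. These shares were 38.5% and 9.6%, beside 21.2% and 29.6% over all genes. The falls included CSLE1, a cellulose synthase-like gene at 688, 972 and 775 in L3 and 163, 116 and 182 in L6 (log2 -2.29, limma adjusted p = 3.09e-05), and the COBRA-like genes BC1L9 and BC1L6 (log2 -1.05, adjusted p = 0.00276 in limma). Of 23 tested genes of lignin and secondary walls (of 27), 11 rose (47.8%) and 4 fell (17.4%), with a median of 0.69. The 4CL1 gene read 114, 111 and 88.3 against 250.1, 164 and 219.9 (log2 0.91, limma adjusted p = 0.00606), whereas CAD1, of the cinnamyl alcohol dehydrogenase family, fell from 624, 623 and 772 to 252, 252 and 292 (log2 -1.29, adjusted p = 0.000121). Lignin genes thus moved in both directions. Without the L3 array of Mh9, 8 primary wall genes and 3 lignin genes rose, and without the L3 array of WT1, 34 primary wall genes did. The replicate block gave 7 lignin genes that rose. Markers of secondary wall and xylem were 13 genes, of which 10 passed the filter, and all of them are also members of the lignin list. Their summed signal was 2300, 2815 and 530 in L3 of Md15, Md43 and Mh9 and 8447, 7782 and 7505 in L6. The sum is therefore not separate from the counts of that list, and its part in these counts was not tested.

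Of 41 tested genes of the cell cycle and DNA replication (of 45), 11 rose (26.8%, beside 21.2% over all genes) and 1 fell (2.4%, beside 29.6%). The share that rose was thus close to that background, and the share that fell was below it. The median of 1.04 was the highest of the 28 lists. The members with the strongest statistics changed little in size. ORC2, a subunit of the origin recognition complex, read 121, 119.8 and 117 in L3 and 161, 150.4 and 152 in L6 (log2 0.33, SE 0.07, limma adjusted p = 0.00386). ORC4, of the same complex, read 88.7, 78.03 and 65.01 against 111, 120.3 and 104 (log2 0.46, adjusted p = 0.00811 in limma). KRP4, an inhibitor of cyclin-dependent kinases, read 304, 274 and 302 against 387, 415 and 423 (log2 0.46, adjusted p = 0.00877 in limma). Mitotic genes had larger differences that did not pass. The B-type cyclin CYCB1-1, a marker of dividing cells, read 205, 242 and 13.4 in L3 and 455, 647 and 469 in L6 (log2 2.16, adjusted p = 0.11), and the mitotic kinase CDKB2-1 read 203, 204 and 34.3 against 407, 537 and 377 (log2 1.75, adjusted p = 0.094). In both, L3 of Md15 and Md43 stood between L3 of Mh9 and the L6 arrays, and the leaves did not overlap. The 6 markers of dividing cells, of which 5 passed the filter, summed to 1183, 1459 and 419 in L3 and to 2285, 3080 and 2390 in L6. All 6 are also members of this list, so the sum is not separate from its counts. With a single array left out, the number of the list that rose ran from 3 (without L3 of Mh9) to 28 (without L3 of WT1), and it was 21 with the replicate block. Of 25 ribosomal protein genes, 10 rose and none fell (median 0.20), and 1 rose without the L3 array of Mh9 and 5 with the replicate block. Among them rpl5 read 1666, 1839 and 969 against 3577, 4134 and 2804 (log2 1.26, limma adjusted p = 0.00897), a call kept under every alternative tried. RPS26 had a difference of 0.58 and RPL27 of 0.48. The calls of RPS26 and RPL27 were lost without the L3 array of Mh9 or the L6 array of Md43.

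**Figure D3:**
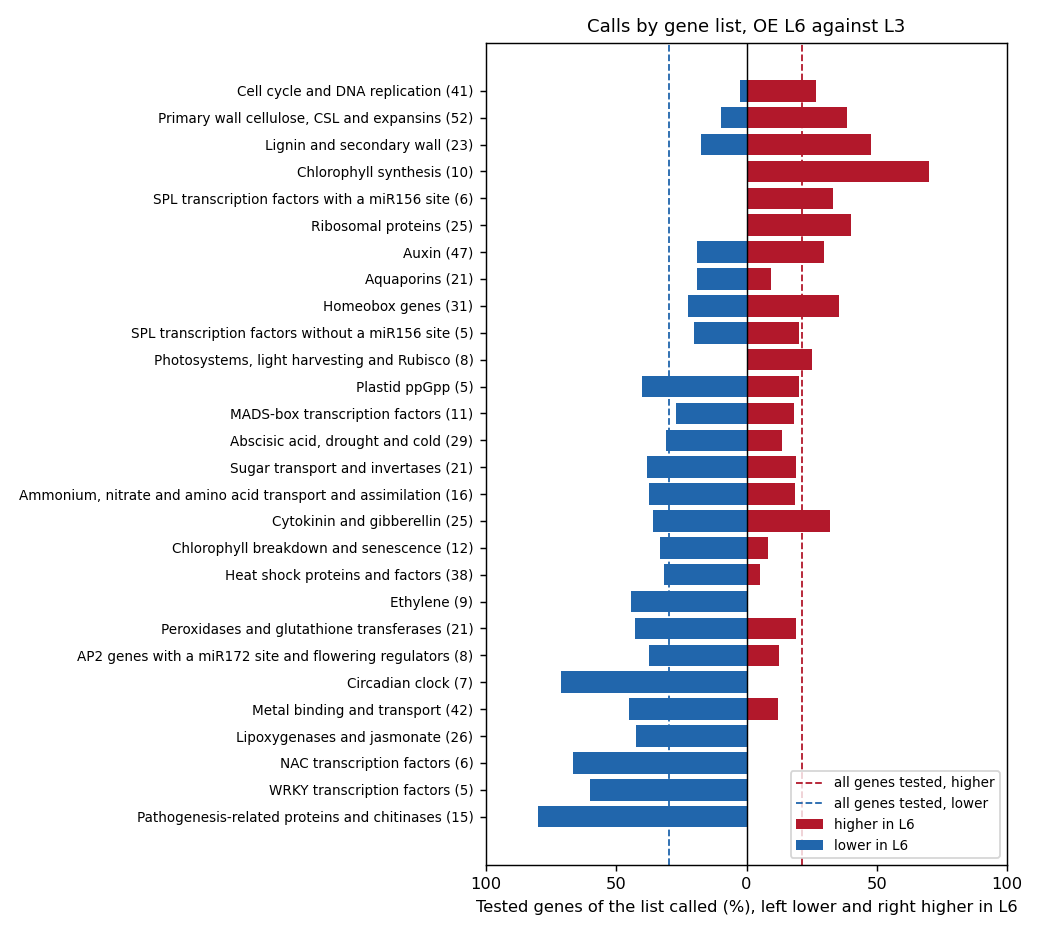
Share of the tested genes of each list (number in brackets) that were called higher (right) or lower (left) in OE L6; dashed lines mark the shares over all genes tested, 21.2% higher and 29.6% lower. Lists are ordered by median difference, and the pathogenesis-related list reaches 80.0% lower and the chlorophyll synthesis list 70% higher.

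Genes of chlorophyll synthesis gave rises and no fall, while the share of breakdown genes that fell was close to that over all genes. Of 10 synthesis genes, all tested, 7 rose and none fell, with a median difference of 0.62, and 3 rose without both leaves of any 1 line. CHLG, chlorophyll synthase, read 746, 806 and 638 in L3 and 1271, 1363 and 1125 in L6 (log2 0.77, SE 0.14, limma adjusted p = 0.00213). CHLD, a subunit of magnesium chelatase, read 1292, 1453 and 1229.5 against 1935, 2147 and 1855 (log2 0.57, adjusted p = 0.00681 in limma). GluTR, glutamyl-tRNA reductase at the entry of the pathway, read 901, 1117 and 869 against 1924, 1284 and 1449 (log2 0.67, adjusted p = 0.0101 in limma), and its call was lost in the 6 OE arrays fitted alone with the line as a replicate block (adjusted p = 0.056). Of 12 tested genes of chlorophyll breakdown and senescence (of 13), 4 fell (33.3%, beside 29.6% over all genes) and 1 rose, with a median of -0.17. RCCR1, a red chlorophyll catabolite reductase, fell from 1490.4, 1337 and 1602 to 439, 401 and 632 (log2 -1.58, SE 0.16, adjusted p = 9.48e-05 in limma). SGR, the stay-green magnesium dechelatase that starts the breakdown, fell from 238, 203 and 296 to 94.6, 111 and 98.5 (log2 -1.14, adjusted p = 0.000559 in limma). The autophagy gene ATG8C fell by a smaller amount (log2 -0.32, adjusted p = 0.0104 in limma).

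Genes of the photosynthetic apparatus gave a share of rises near that over all genes, and no fall. Of 8 tested genes of photosystems, light harvesting and Rubisco (of 9), 2 rose (25.0%, beside 21.2% over all genes). None of the 8 fell, beside 29.6% over all genes, and the median was -0.04. Rubisco activase, rca, read 2752, 3543 and 2738 in L3 and 4756, 4698 and 3991 in L6 (log2 0.58, limma adjusted p = 0.00408), and the Rubisco small subunit RBCS-C read 10150.4, 11250.3 and 8549.7 against 13012, 12532 and 12796 (log2 0.36, adjusted p = 0.0133 in limma). CAB2R, a light-harvesting protein, read 9059, 9106 and 8498 against 7967, 4568 and 6964 and did not pass (log2 -0.49, adjusted p = 0.0577). It passed without the L6 array of Md15 that stood apart in its controls (log2 -0.65, limma adjusted p = 0.0253) and without the L6 array of WT1 (0.0428). Of 5 tested genes for plastid ppGpp, CRSH2 rose and RSH3 and RSH2 fell, RSH3 from 226, 232 and 239.9 to 113, 97.4 and 104 (log2 -1.04, adjusted p = 0.000849 in limma). RSH2 had a difference of -0.33 (adjusted p = 0.0444 in limma, 0.123 with the replicate block), and 6 of the 12 arrays ended its call when left out. CRSH2 was not called without the L3 array of Mh9 or any 1 OE L6 array.

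Defence genes were the list with the lowest median. Of 15 tested pathogenesis-related and chitinase genes (of 16), 12 fell and none rose, with a median of -2.05, and 12 also fell without the L3 array of Mh9. Cht1 read 656, 633 and 688 in L3 and 30.3, 36.6 and 49.3 in L6 (log2 -3.64, SE 0.30, limma adjusted p = 3.03e-05), Cht3 read 211, 194 and 226 against 19.3, 16.7 and 15.1 (log2 -2.77) and Cht4 read 305, 143 and 141 against 6.67, 11.95 and 8.78 (log2 -3.0). The lines of a leaf lay close together beside the leaf difference in Cht1, Cht3 and Cht4. Of 26 tested lipoxygenase and jasmonate genes (of 34), 11 fell and none rose, with a median of -0.53. CM-LOX2 read 215, 716 and 779.7 against 19.3, 25.1 and 24.6 (log2 -3.72, adjusted p = 0.000167 in limma), and COI1H, of the F-box family of jasmonate receptors, 1436, 1393 and 1381 against 823, 599.9 and 703 (log2 -0.98, adjusted p = 0.00028 in limma). Without the L3 array of Mh9 the median of this list was -0.28, and 9 genes fell.

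WRKY and NAC transcription factors, families known from stress and ageing, gave falls and no rise. Of 5 tested WRKY genes (of 6) 3 fell and of 6 tested NAC genes (of 8) 4 fell, and none rose. NAC071 read 1386, 1363 and 1869 in L3 and 263, 134 and 347 in L6 (log2 -2.64, limma adjusted p = 0.00186). NAC45 and NAC068 had differences of -1.49 and -1.33. WRKY71 read 487, 529.6 and 1332 against 102, 140.3 and 102 (log2 -2.47, adjusted p = 0.00518 in limma), with L3 of Mh9 well above the other lines. WRKY51 was steadier, at 359, 373 and 434 against 181, 139.9 and 200.3 (log2 -1.1, adjusted p = 0.00293 in limma), and WRKY24 had a difference of -1.32 (adjusted p = 0.0185 in limma), a call that was lost without the L3 array of Mh9 or the L6 array of Md15 or Md43. Of 38 tested heat shock proteins and factors (of 45), 12 fell (31.6%, near the 29.6% over all genes) and 2 rose. Among the heat shock factors, HSF10 read 280.4, 482 and 539 against 28.1, 24.9 and 29.3 (log2 -3.32, adjusted p = 2.18e-05 in limma), HSF23 fell by 1.89 on the log2 scale and HSFA2D by 0.76.

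Of the 7 clock genes, all tested, 5 fell and none rose, by small amounts. The pseudo-response regulators PRR95, PRR1 and PRR73 had differences of -0.72, -0.48 and -0.42, with limma adjusted p-values of 0.00204, 0.0105 and 0.00356. PRR95 read 2977, 2782 and 3151 in L3 and 2184, 1593 and 1662 in L6. The time of day of sampling is not stated in the labels. Of 9 tested ethylene genes (of 12) 4 fell (44.4%, beside 29.6% over all genes) and none rose. EIL1 (LOC4332697), of the EIN3-like factors that carry the ethylene response, read 2326, 3067 and 3346 against 483, 59.95 and 676 (log2 -3.28, SE 0.79, adjusted p = 0.00931 in limma), with L6 of Md43 far below the other lines. A second gene named EIL1 (LOC107276358) fell evenly, from 3311, 2884 and 3409.7 to 1979, 1332 and 1816 (log2 -0.92). The ethylene receptor ERS1 had a difference of -0.35 (adjusted p = 0.0217 in limma), and its call was lost with the replicate block (adjusted p = 0.0522) and without the L3 array of Md15 or Md43 or the L6 array of Md43, and 2 genes of the list then fell.

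Transport genes for metals, nitrogen and sugar moved in both directions, and the shares that fell were 45.2%, 37.5% and 38.1% beside 29.6% over all genes, with the nitrogen and sugar lists near that background. Of 42 tested metal genes (of 52), 19 fell and 5 rose, with a median of -0.53, and 18 fell and 1 rose without the L3 array of Mh9. The zinc transporters ZIP2 and ZIP6 read 373, 367 and 421 and 1009, 1056 and 1081 in L3 and 77.8, 51.2 and 71.3 and 368, 277 and 387 in L6 (log2 -2.29 and -1.58, limma adjusted p = 1.24e-05 and 0.000176). Neither gene differed much between lines. Of 16 tested nitrogen genes (of 20), 6 fell and 3 rose. AMT3-3, an ammonium transporter related to AMT3-2, read 315, 504 and 493 against 29.9, 20.2 and 64.5 (log2 -3.12, adjusted p = 0.00019 in limma), and NAR2.2, a partner protein of nitrate transporters, read 123, 160.2 and 169 against 48.3, 50.8 and 46.1 (log2 -1.36, adjusted p = 1.93e-05 in limma). Of 21 tested sugar genes (of 27), 8 fell and 4 rose, and 5 fell and none rose without the L3 array of Mh9. The cell-wall invertase CIN1 fell from 493, 715 and 752 to 237, 261 and 206 (log2 -1.4, adjusted p = 0.000612 in limma), the opposite direction to CIN2. NIN3, of the neutral invertases, fell from 1179, 1356 and 1552 to 889.6, 729 and 873 (log2 -0.70).

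**Figure D4:**
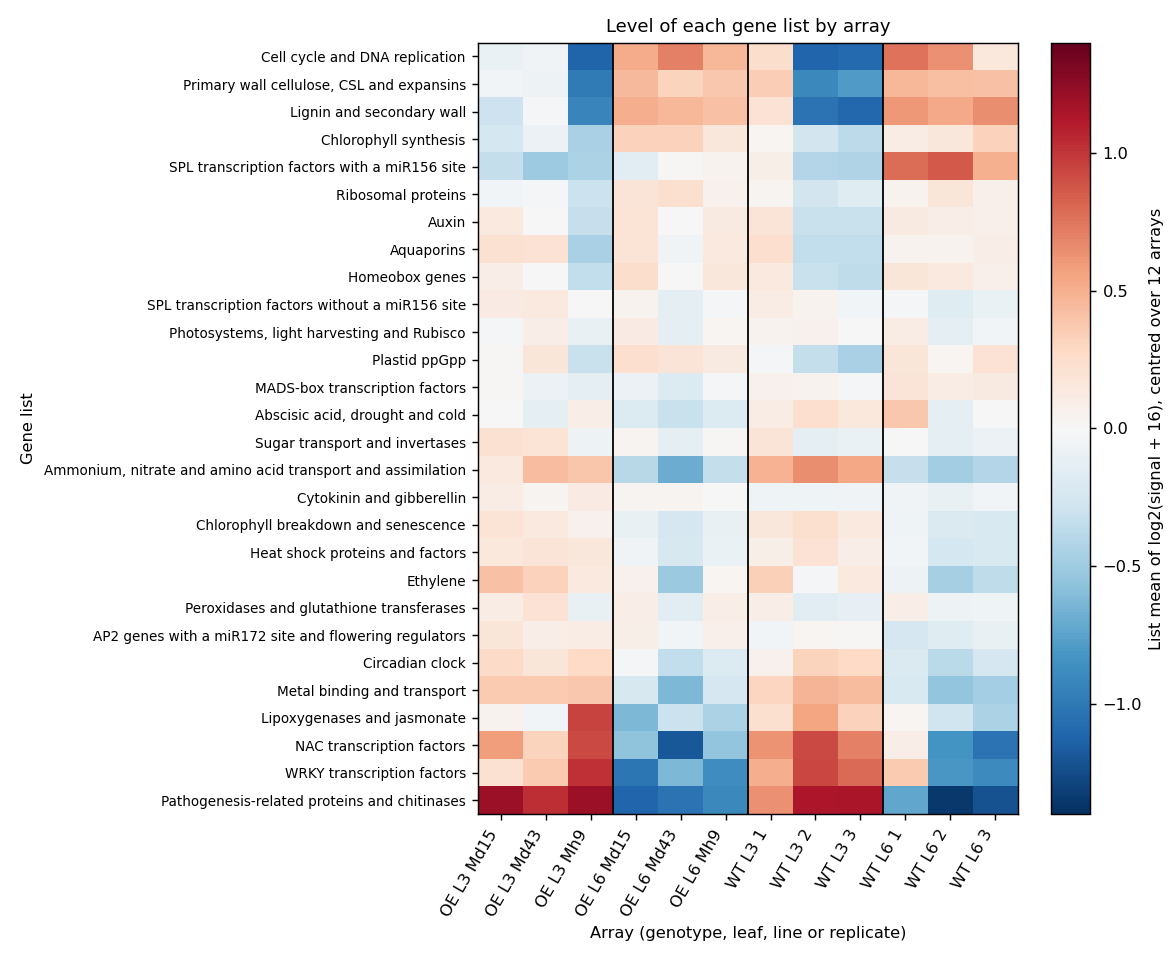
Mean log2(signal + 16) of each gene list on each array, minus the mean of the list over the 12 arrays. The 3 lists at the top are low in L3 of Mh9, WT2 and WT3 and intermediate in L3 of Md15 and Md43. L3 of WT1 is intermediate for the lignin list and within the range of the L6 arrays for the cell cycle and primary wall lists. Pathogenesis-related genes, at the bottom, are high in every L3 array and low in every L6 array.

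Hormone lists were split. Of 47 tested auxin genes (of 58), 14 rose and 9 fell (median 0.20), and 7 rose and 9 fell without the L3 array of Mh9. Of the Aux/IAA repressors, IAA14 rose, whereas IAA25 fell from 1085, 948 and 1214 to 379, 309.9 and 410.2 (log2 -1.52, limma adjusted p = 5.14e-05) and IAA1 from 1046, 894 and 1093 to 372, 319 and 419 (log2 -1.41, adjusted p = 5.55e-05). SAUR39, of the small auxin-up RNA family, fell from 484, 768 and 1099 to 57.5, 27.4 and 70.4 (log2 -3.54). Family members of the same pathway thus went opposite ways. Of 25 tested cytokinin and gibberellin genes (of 29), 8 rose and 9 fell. CKX11, of the oxidases that degrade cytokinin, fell from 269, 296 and 335 to 137, 129 and 94.9 (log2 -1.22, adjusted p = 0.000165 in limma), ORR3, a response regulator, fell from 547, 470.5 and 555 to 236, 247 and 223 (log2 -1.1), and CPS1, which makes a gibberellin precursor, rose from 44.3, 51.5 and 37.8 to 95.1, 142 and 103 (log2 1.08, adjusted p = 0.000705 in limma). Of 29 tested abscisic acid, drought and cold genes (of 34), 4 rose (13.8%) and 9 fell (31.0%, near the 29.6% over all genes). PYL11, of the abscisic acid receptors, had a difference of -1.25, PP2C68, a phosphatase, of -1.72 and SAPK6, a kinase of the pathway, of -1.08, and all 3 fell.

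Water channels and detoxifying enzymes gave calls in both directions. Of 21 tested aquaporins (of 24), 2 rose and 4 fell. Both shares were below the 21.2% higher and 29.6% lower over all genes. PIP1-3, of the plasma membrane type, fell steeply from 601, 1222 and 1179 to 55.9, 57.4 and 83.3 (log2 -3.59, SE 0.29, limma adjusted p = 2.59e-05), and TIP4-1 and TIP4-2, of the tonoplast type, had differences of -0.72 and -0.45. Of 21 peroxidase, catalase and glutathione transferase genes, 4 rose and 9 fell. The share that rose was near the 21.2% over all genes, and the share that fell was above the 29.6%. The ascorbate peroxidase APX7 fell from 930.3, 1195 and 1296 to 398, 250.5 and 357 (log2 -1.73, adjusted p = 0.000357 in limma), GSTZ3 had a difference of -1.14 and the catalase catA, among the brightest genes here, fell from 7930.3, 7972 and 8742 to 6315, 4878 and 5051 (log2 -0.61).

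Of the 11 measured SPL genes, a family that holds the known targets of miR156, 3 rose and 1 fell. Of 6 measured members with a miR156 site, all of them tested, 2 rose and none fell (median difference 0.39). SPL12 read 245, 179 and 147 in L3 and 337, 322 and 348 in L6 (log2 0.80, SE 0.16, limma adjusted p = 0.00396), and SPL16 read 39.97, 37.4 and 35.8 against 67.8, 61.1 and 53.9 (log2 0.51, SE 0.16, adjusted p = 0.0239). The call of SPL16 was lost without the L3 array of Md43 or Mh9, without the L6 array of Md15 or Md43 (limma adjusted p 0.0542 to 0.0742), and without both leaves of any line. In wild type the differences were 1.24 for SPL12 and 0.93 for SPL16. SPL14, a regulator of tillering and panicle branching, read 37.7, 34.4 and 14.9 against 58.3, 67.5 and 69.5 and did not pass (log2 0.89, SE 0.53, adjusted p = 0.194), although the leaves did not overlap. Its wild-type signals were 62.5, 17.3 and 12.2 in L3 and 404, 364 and 86.03 in L6 (log2 2.6), and the difference of the leaf differences was -1.71 (SE 0.75, adjusted p = 1 in limma), which did not pass. In the 6 OE arrays fitted alone, SPL14 passed (adjusted p = 0.0206). The SPL4 probe set with the highest mean read 183, 169 and 206 against 206, 201 and 226 (log2 0.17, adjusted p = 0.175), and a second SPL4 probe set read 40.7, 49.1 and 47.5 against 75.7, 70.8 and 81.8 and rose (log2 0.58, adjusted p = 0.000566 in limma). A further SPL4 probe set read 44.7, 40.2 and 35.8 against 33.8, 44.2 and 41.4, with a difference of -0.01. In L3 this probe set, the second SPL4 probe set, SPL14 and SPL16 all lay below the array medians.

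SPL2 read 275, 200.5 and 419 in L3 and 362, 349 and 324 in L6, with overlapping leaves (log2 0.26, limma adjusted p = 0.438). SPL7 read 148, 155 and 169 against 68.02, 167 and 184 (log2 -0.25, adjusted p = 0.46), where the low L6 value came from the array of Md15 that stood apart in its controls, and without that array the difference was 0.14. Among the 5 measured SPL genes without a site, SPL1 fell from 760.1, 837 and 891 to 329.9, 264 and 361 (log2 -1.35, adjusted p = 0.00138 in limma) and SPL8 rose from 61.7, 58.4 and 33.5 to 102, 90.1 and 105 (log2 0.80, adjusted p = 0.0351 in limma; 0.0622 with the replicate block, and not called without the L3 array of Mh9 or any 1 OE L6 array). SPL1 fell in all lines by a similar amount. SPL6, SPL9 and SPL15 had differences of -0.04, -0.05 and 0.07 and did not pass, nor did a further SPL6 probe set (0.25, adjusted p = 0.0606).

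Other regulators of phase and organ identity gave calls in both directions. Of 8 tested AP2 and flowering genes (of 9), AP2-1 fell (log2 -0.51, limma adjusted p = 0.0117), Hd16, a kinase of flowering control, fell (log2 -0.45, adjusted p = 0.00479) and Ehd3, a promoter of flowering, rose from 147, 139 and 93.7 to 249.7, 242 and 202 (log2 0.81, adjusted p = 0.00961). In all, 3 genes of this list fell (37.5%, beside 29.6% over all genes) and 1 rose (12.5%, beside 21.2%). Of 11 tested MADS-box genes (of 31, most of them below the filter), 2 rose (18.2%) and 3 fell (27.3%), both near the shares over all genes. MADS16, known as a floral organ gene, rose from 181, 155 and 138 to 243, 267 and 277 (log2 0.68, adjusted p = 0.00334 in limma) and MADS18 from 205, 175 and 128 to 275, 369 and 312 (log2 0.87, adjusted p = 0.00782 in limma). MADS57 fell from 127, 165 and 209 to 63.6, 118 and 85.8 (log2 -0.81, adjusted p = 0.0123 in limma; 0.0502 without the L3 array of Mh9). Of 31 tested homeobox genes (of 46), 11 rose (35.5%) and 7 fell (22.6%). Without the L3 array of Mh9, 3 of this list rose and 2 fell (6 and 5 with the replicate block). Hox9, of the class III type that patterns leaves and vessels, rose from 291, 275 and 141 to 635, 624 and 510.1 (log2 1.32, adjusted p = 0.00886 in limma), whereas HOX1, of the HD-Zip type, fell from 395, 554 and 670.5 to 116, 94.9 and 162 (log2 -1.98) and HOS59 from 5234, 5004 and 5460.0 to 3375, 2403 and 3359 (log2 -0.79).

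Most of the leaf difference was shared with wild type. Across the 34316 probe sets the OE and WT leaf differences, which share no array, correlated at 0.966 (probe sets are not independent, and r is given as a description). In WT, 16528 probe sets (48.2%) were called, and 12360 were called in both genotypes, 12357 of them with the same sign. The shared calls of the same sign were 84.7% of the OE calls and 74.8% of the WT calls. The SD of the differences was 0.773 in OE and 0.870 in WT. Among the strong rises the WT differences were 4.15 for LAC7, 3.85 for CRSH2 and 2.97 for 4CL2, and the differences from OE did not pass (limma adjusted p = 1, 1 and 1). Median differences of the lists in OE and WT lay side by side at 1.04 and 1.22 for the cell cycle and at 0.39 and 0.69 for SPL genes with a site.

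The test of the leaf difference in OE minus that in WT called 6 of 34316 probe sets (0.0175%), and 844 (2.46%) had an unadjusted p under 0.05, fewer than the share of 0.05 that the threshold sets. NAR2.2 was the 1 gene with a name other than a LOC number. It read 123, 160.2 and 169 in OE L3 and 48.3, 50.8 and 46.1 in OE L6, and 386, 399 and 431 and 54.1, 52.99 and 56.9 in WT. The fall was thus smaller in OE (log2 -1.36) than in WT (-2.58), by 1.21 (SE 0.15, limma adjusted p = 0.0428), and the genotypes differed in L3 and lay close in L6. With the replicate block the adjusted p of this difference was 0.643, and the call was also lost with a pseudocount of 1, quantile normalization, a 60th percentile filter, array weights or 1 probe set per gene, without both leaves of any line, and without any array other than the L3 arrays of Md15 and Mh9 (adjusted p 0.0523 to 0.271). LOC4331398, to which the annotation gives no name, read 1167, 1149 and 1285 in OE L3 and 326, 239 and 362 in OE L6 on 1 probe set, and its leaf difference departed from that of WT (log2 -1.92 in OE and -0.17 in WT, difference -1.75, adjusted p = 0.027 in limma). Its WT signals were near background, and a fall from there could not be read.

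The next named genes in this test did not pass. MT1B, a metallothionein, read 107, 137 and 203 in OE L3 and 33.1, 37.3 and 27.1 in OE L6 against 695, 934 and 647 and 34.1, 34.8 and 38.4 in WT (difference of differences 2.16, SE 0.28, limma adjusted p = 0.0629), and passed with a pseudocount of 64 (0.0295), without the L3 array of Mh9 (0.0188) and without both leaves of Mh9 (0.0304). MT1B had, like NAR2.2, lower L3 signals in OE than in WT and similar L6 signals. The gene rab25 read 32.4 to 37.7 in OE L3 and 37.5 to 42.00 in OE L6, and 28.6 to 36.03 and 75.7 to 88.1 in WT (difference -0.86, adjusted p = 0.0591, and 0.0295 with a pseudocount of 64). Differences for the chitinase Cht9, the allene oxide synthase AOS2 of jasmonate synthesis and the factor S1FA2 were 1.27, 1.06 and -0.63 (adjusted p = 0.195, 1 and 0.209). In each of Cht9 and AOS2 the gene fell in both genotypes, by -1.04 and -1.03 in OE and by -2.31 and -2.08 in WT. The SPL list gave no call in this test.

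**Figure D5:**
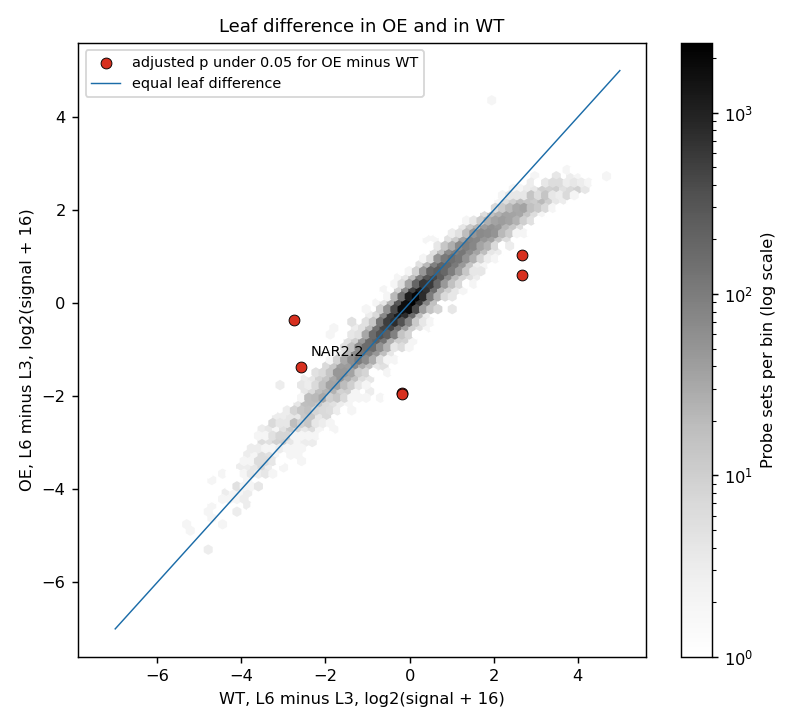
Leaf difference in OE against that in WT for the 34316 probe sets tested, in log2(signal + 16), as counts per hexagon on a log grey scale; red points are the 6 probe sets called for OE minus WT (2 of them, of LOC4331398, overlap). Most probe sets follow the line of equal differences, and the largest WT rises lie below it, at smaller OE values.

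Larger differences than those of the named genes were found among genes with a LOC number only, chosen here after their values were seen. LOC4352346 read 4686, 5764 and 6707 in L3 and 30.6, 37.2 and 79.1 in L6 (log2 -6.52, limma adjusted p = 1.29e-06), and LOC4348206 read 2702, 2525 and 3417 against 16.97, 22.6 and 27.98 (log2 -6.23). LOC4334975 rose from 42.3, 44.5 and 21.9 to 493, 401 and 344 (log2 3.05), and LOC4351887 from 21.7, 134 and 17.3 to 363, 4759 and 831 (log2 4.33). Of the 14595 called probe sets, 1341 carry 1 named gene and 5408 carry no gene or several in the annotation used. The probe sets read for Cht8, AMT3-2, Cht3, SGR, GSTZ3, catA, AP2-1, CAB2R, TIP4-2, RBCS-C, ORC4, RPL27, rca and the brightest of SPL4 are of types that can bind related transcripts, so their near-identical paralogs are uncertain.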

How the data were processed

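Per the labels' protocols, biotin-labelled RNA from 12 leaf samples was read on an Affymetrix array. The authors deposited linear signal intensities for 57381 probe sets on each array. How these were summarised and scaled is not stated in the labels or the table. Array medians were similar, so the values were not scaled again.

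A pseudocount of 16 was added before taking log2. Probe sets were dropped if they were array controls (187) or had a mean below the 40th percentile, and 34316 remained. In R 4.3.3, limma 3.58.1 fitted means of the 4 groups (lmFit, then eBayes with trend), with 8 residual degrees of freedom. All p-values are two-sided, adjusted by Benjamini-Hochberg, with a threshold of 0.05. The fit was also run on simulated data. These gave all groups an equal spread and did not pair leaves, unlike the data, so they do not test the fit for either. Python 3.11.15, pandas 2.3.3 and matplotlib 3.10.9 selected genes and drew figures.

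The platform annotation gives 1 gene for 22436 probe sets, several for 95 and none for 34663. Every gene ID was found in the NCBI table of assembly ASM3414082v1, which served only for names. Of its 17905 genes on the array, 2449 carry a name beyond their LOC number. Named genes were, with the brightest probe set per gene: the 12 largest rises and falls among called probe sets whose leaves did not overlap, the 3 members of each list with the strongest statistic, every measured SPL gene, and the 6 named genes with the smallest p for OE minus WT, 111 in all. The members and the 28 lists were chosen with earlier results of these data known. Lists were counted, not tested.

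Same-numbered OE leaves share a line per the labels, so the numbers pair the OE leaves by line. Their deviations from the group means correlated at 0.110, 0.151 and 0.204, and the highest with another number were 0.0552, -0.0454 and -0.0443. These correlations are small and would not show the pairing by themselves. In WT these correlations were -0.244, -0.362 and -0.0491, and the highest with another number were 0.340, 0.245 and 0.207. The numbers are therefore not shown to pair the WT leaves. The line did not enter the model behind the printed p-values. It was fitted as a replicate block among the alternatives, where WT leaves were blocked by their number. Alternatives changed the normalization (quantile), the pseudocount (1 or 64), the filter (none or the 60th percentile), the trend, the array weights, the arrays fitted (OE alone), the replicate block, the probe sets (1 per gene) and the minimum fold (2), or left out each array. Leaving out both leaves of a line was chosen after seeing the data. Sequences of miR156 and its sites were not analysed here, and miR156 itself was not measured in the values used.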

Additional observations from a re-analysis of the deposited data

Results flagged for a closer look

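The leaf difference in OE differed from that in WT, by the limma test of the difference, for 6 probe sets. LOC4331398 had a difference of differences of -1.75 on one probe set and -1.77 on the other. In NAR2.2 it was 1.21. In 3 probe sets with no gene listed it was -2.08, -1.62 and 2.38. The second LOC4331398 probe set read 999.9, 983 and 1212 in OE L3 and 259.9, 211 and 325 in OE L6. The probe set at -2.08 read 17.1 to 20.1 in OE L3 and 30.9 to 49.3 in OE L6, against 10.9 to 19.7 and 176 to 202 in WT. The one at -1.62 read 7.19 to 9.699 and 26.5 to 44.03 in OE, against 7.85 to 14.3 and 140.1 to 174 in WT. The one at 2.38 read 18.2 to 21.3 and 10.8 to 13.3 in OE, against 118 to 261 and 9.36 to 12.7 in WT. The 3 unlisted probe sets are dim in OE in both leaves.

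Control probe sets for reporter and selection genes, which entered no comparison, gave a signal in the transgenic arrays. Of 64 such probe sets, 2 had every OE array at more than 10 times every WT array. The first had a lowest OE signal of 2015 and a highest of 3627, against 32.6 to 63.6 in WT. The second had a lowest OE signal of 1775 and a highest of 5616, against 12.3 to 26.3 in WT. Both were present in L3 and L6 of all 3 lines.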

How the results depend on the processing

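Of 102 named genes called between the OE leaves, 69 kept the call in all 26 alternatives and 5 in the 25 that tested them, as they were below the 60th percentile filter. Those that most often lost it were BURP12 (16), BC1 (15), LAC4, IAA14 and RSH2 (13 each), CESA7 (12) and CIN2 (11). The OE count of 14595 was 8241 with 1 probe set per gene, where fewer features were tested, and 3868 with a 2-fold minimum. With each array left out it ran from 9027 to 16554. Without both leaves of Md15, Md43 or Mh9 it was 9490, 7895 or 7175, with fewer samples. The replicate block gave 11336, and changed no call of a named gene other than ERS1, RSH2, SPL8, BURP12, CESA7, IAA14, BC1, LAC4 and the OE minus WT difference of NAR2.2. With the block in the 6 OE arrays alone, ERS1, RSH2 and GluTR lost their call and SPL14 gained one. The WT count of 16528 was 9231 with 1 probe set per gene, 5042 with a 2-fold minimum, 13470 with the block and 10448 to 18522 with each array left out. The 6 calls for OE minus WT became 0 with a pseudocount of 1, 2 with a 60th percentile filter, 0 with the replicate block, 1 with 1 probe set per gene, 0 to 7 with each array left out, and 0 or 2 without both leaves of Md15 or Md43, and the cause was not tested. SPL7 ran from -0.48 to 0.14 with each array left out and was 0.10 without Md15, SPL6 ran from -0.095 to 0.040 and was 0.020 without Md43, and SPL9 ran from -0.10 to 0.038 and was 0.035 without Mh9, none of them called. Quantile normalization gave 7242 higher and 7236 lower probe sets in OE. Signals under the array median are close to background, which limits the folds of the strongest falls.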
